A study of Mus musculus with 5 samples.

Results

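The spots described here were the fibroblast-dominant capture spots of infarcted neonatal mouse hearts. Each Visium spot carried 11 label transfer scores from the authors, 1 per cell type of a reference of single nuclei, and a spot was called FB-dominant when its fibroblast (FB) score was the highest of the 11 and its deposited total was at least 1000 UMIs, the molecules counted in a spot. The rule found 210 of the 1860 spots of the 3 infarcted (MI) sections, 22 at MI day 3, 94 in MI day 7 replicate 1 and 94 in MI day 7 replicate 2. The same rule found 388 FB-dominant spots in the 2 sham sections, and the series held 3364 spots in all. A spot is a small patch of tissue that can hold several cells. An FB-dominant spot is one in which the FB score led, and not a pure sample of fibroblasts.

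All hearts came from wild-type C57BL/6 mice operated on at postnatal day 1. In the MI groups the left anterior descending artery was ligated, and in the sham groups it was not. Hearts were collected 3 or 7 days later, and 1 section of 10 µm, taken 200 µm under the ligature (in sham hearts, from the corresponding height), filled each capture area. The groups were MI day 3 (1 section), MI day 7 (2 sections), sham day 3 (1 section) and sham day 7 (1 section), so the day 3 values of either group rest on a single section. Values for the MI sections are given in the order day 3, day 7 replicate 1 and day 7 replicate 2, and values for the sham sections in the order day 3 and day 7.

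Cardiac fibroblasts make and remodel the extracellular matrix of the heart. After an infarct they become activated, secrete fibrillar collagens and matricellular proteins such as periostin and tenascin C, and build the scar that replaces lost muscle. The neonatal mouse heart can regenerate after an injury in the first days of life, and CM4 is the reference's name for a class of immature cardiomyocytes found in injured neonatal hearts, which is why the position of the FB-dominant spots relative to CM4-dominant spots was examined.

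The median total per spot was 20842.5 to 53940 UMIs across the 5 sections. The mitochondrial share was 24.7% for MI day 7 replicate 1, against 13.8% to 15.8% for the remaining 4 sections. The female-expressed gene Xist was listed at 48.5 CPM (counts scaled to a common total) in MI day 7 replicate 1 and at 39.0 CPM in sham day 3, and the Y-linked gene Ddx3y at 35.6, 32.9 and 31.6 CPM in MI day 3, MI day 7 replicate 2 and sham day 7. These sex-linked genes thus separated the 2 MI day 7 sections, MI day 3 from MI day 7 replicate 1, and MI from sham at day 3. Spot barcodes shared between MI sections numbered 83, 3 and 449 over the 3 pairs, of which 0, 0 and 2 were FB-dominant in both.

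The FB-dominant spots made up 6.03% of the spots at MI day 3 (95% exact binomial interval 3.82 to 8.98), 13.7% in MI day 7 replicate 1 (11.2 to 16.5) and 12% in replicate 2 (9.77 to 14.4). In the sham sections they made up 22.5% (19.0 to 26.2) and 27.7% (24.9 to 30.7), and these intervals cover counting error only. Every MI section thus lay below both sham sections. The mean was 10.5% ± 4.01 (SD, n = 3) in MI and 25.1% ± 3.71 (SD, n = 2) in sham, a difference of -14.5 percentage points (2-sided exact permutation p = 0.2, the smallest that 3 against 2 sections allow, and 0.2 after adjustment over the 4 section measures tested). This is a share of leading scores and not a level of fibroblast RNA. In FB-dominant spots 8 fibroblast markers summed to 12214.5, 12022 and 19214 CPM in MI against 6962 and 7711 CPM in sham. In other spots they summed to 5571, 4457 and 5801 CPM against 3643 and 3588 CPM. The cause of the lower share was not tested.

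The median FB score of the FB-dominant spots was 59.7%, 60.8% and 65.9% of the summed scores in the MI sections, and 70.5% and 77.9% in the sham sections. Some spots sat close to the rule's edge. The smallest lead of the FB score over the next score was 0.327, 0.129 and 1.48 percentage points, and 3, 7 and 4 spots led by under 5 points. Just outside the rule, 40, 59 and 103 spots had FB as their second score, the nearest of them 0.966, 0.532 and 0.316 points short. No spot with FB as its highest score had under 1000 UMIs, and the shallowest members held 19191, 22482 and 5300 UMIs. Their median totals were 31428.5, 53775.5 and 17901 UMIs against 35360, 54058 and 21226 in the other spots of the same sections, so the members were somewhat shallower in each section.

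The second score named the class ranked next in the FB-dominant spots. CM4 was the runner-up in 7 of 22, 53 of 94 and 42 of 94 spots, and EndoEC, the endocardial class, in 7, 20 and 14. CM1, the class that led most other spots, was second in only 2, 6 and 27. In the sham sections CM4 was second in 15 of 122 and 30 of 266 FB-dominant spots. The mean CM4 score of the FB-dominant spots was 12.4%, 13.7% and 10.3% in MI against 3.70% and 2.82% in sham, which gave 12.1% ± 1.70 (SD, n = 3) against 3.26% ± 0.627 (SD, n = 2). All 3 MI sections were above both sham sections (exact permutation p = 0.2, adjusted 0.2). In the other spots of the same sections the mean CM4 score was 10.5%, 10.7% and 11.4% in MI, and 13.8% and 9.48% in sham. FB-dominant spots were thus above other spots in MI day 3 and MI day 7 replicate 1. They were below them in MI day 7 replicate 2 and in both sham sections. The mean macrophage score of the FB-dominant spots was 5.82%, 2.71% and 1.96%, highest at MI day 3, against 2.64% and 3.93% in sham.

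Levels were compared as the mean CPM over spots. The FB score was itself computed from these transcripts, so FB-dominant spots against other spots of the same section is a description without a test. The markers of the class followed the label. Col1a1 (chr11:94936224-94953042, plus strand, GRCm38), a chain of type I collagen, averaged 2422, 1845 and 3554 CPM in FB-dominant spots and 1154, 661 and 988 CPM in other spots. Postn (chr3:54361109-54391037, plus strand), which encodes the matricellular protein periostin, averaged 2199, 1467 and 2458 CPM against 787, 454 and 621 CPM. Col1a2 (chr6:4504814-4541544, plus strand), the partner chain of Col1a1, stood at 2200, 1667 and 3210 CPM against 962, 588 and 848 CPM. Pdgfra (chr5:75152292-75198215, plus strand), a growth factor receptor of fibroblasts, stood at 132, 80.2 and 98.9 CPM against 46.2, 35.7 and 38.7 CPM. The mean log2 differences were 1.46 ± 0.39, 1.72 ± 0.25, 1.54 ± 0.36 and 1.32 ± 0.17 (SD over 3 sections) for Col1a1, Postn, Col1a2 and Pdgfra.

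Individual spots kept this order with few exceptions. Col1a1 ran from 715 through a median of 2105 to 4611 CPM among the MI day 3 members, from 357 through 1416 to 6429 CPM in day 7 replicate 1, and from 204 through 2683 to 15058.5 CPM in day 7 replicate 2. In 21 of 22, 92 of 94 and 91 of 94 members it exceeded the median of the other spots. The same held for Postn in 22, 92 and 93 members. Pdgfra, at lower counts, was at 0 in 1, 3 and 15 members and exceeded the median of the other spots in 19, 74 and 79.

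Of 13287 genes with at least 1 CPM in at least 2 of the 6 mean profiles, 161 (1.21%) were at least 2-fold higher in FB-dominant spots in all 3 MI sections and 0 (0%) were at least 2-fold lower. Higher by any amount in all 3 were 5165 genes (38.9%) and lower were 1375 (10.3%). The median gene was higher by 0.14 on the log2 scale. With median-of-ratios scaling that median was -0.03 and the count at 2-fold was 76 higher and 5 lower, and with mitochondrial and haemoglobin genes left out before scaling it was 111 higher and 4 lower. Without MI day 7 replicate 1, 287 were higher and 55 lower, without replicate 2 192 and 3, and without MI day 3 302 and 0. The 23 genes in the plot of levels kept their direction under both scalings.

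Where the higher of both means reached 50 CPM, the largest difference was that of Eln (chr5:134702593-134747323, minus strand), which encodes tropoelastin. Eln stood at 1356, 1660 and 2710 CPM against 379, 181 and 322 CPM in other spots, a mean log2 difference of 2.70 ± 0.75 (SD). A few spots weighed heavily on it, since the 3 highest members carried 33.3%, 36.2% and 21.4% of its sum, yet 20 of 22, 87 of 94 and 89 of 94 members were above the median of the other spots. Mfap4, a microfibril-associated glycoprotein, stood at 676, 482 and 643 CPM against 184, 89.3 and 115 CPM. Adamtsl2 (chr2:27079379-27108981, plus strand), a secreted protein that binds fibrillin microfibrils, stood at 200, 57.7 and 88.0 CPM against 36.3, 11.3 and 13.1 CPM. Of the 17 elastic fibre and microfibril genes measured, 11 were at least 2-fold higher in all 3 sections and the median log2 difference was 1.34.

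**Figure D1:**
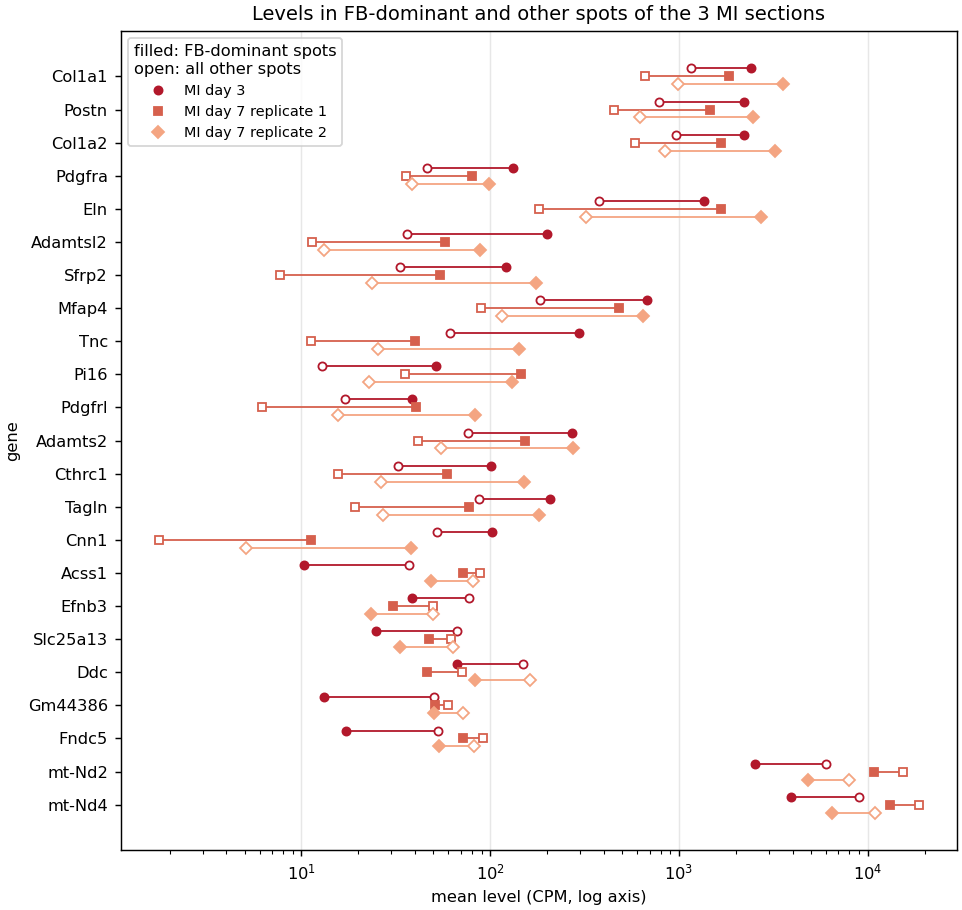
Mean level in CPM on a log axis of 23 genes, with FB-dominant spots as filled and all other spots of the same section as open symbols, 1 colour and shape per MI section. Filled symbols lie to the right of open ones in every section for the fibroblast markers and the 11 genes from Eln to Cnn1, and to the left for the 8 genes from Acss1 to mt-Nd4, with the widest gap for Eln (1660 against 181 CPM in MI day 7 replicate 1).

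Other genes of that abundance with large differences were as follows. Tnc, which encodes tenascin C, stood at 296, 39.7 and 143 CPM against 61.3, 11.3 and 25.3 CPM. Sfrp2, a secreted modulator of Wnt signalling, stood at 121, 54.3 and 174 CPM against 33.3, 7.71 and 23.7 CPM, a difference between those of Adamtsl2 and Mfap4. Cthrc1, a secreted protein of activated fibroblasts, stood at 101, 59.2 and 151 CPM against 32.4, 15.7 and 26.4 CPM. Tnc was highest at day 3, while Sfrp2 and Cthrc1 were highest in day 7 replicate 2. Also above other spots were Pi16 (log2 difference 2.14 ± 0.28), a marker of adventitial fibroblasts, Pdgfrl (2.0 ± 0.76) and Adamts2 (1.99 ± 0.27), which trims the ends of fibrillar procollagens. The contractile genes Tagln (1.97 ± 0.73) and Cnn1 (1.93 ± 0.88) are shared by smooth muscle and myofibroblasts.

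Of 10 fibrillar collagen genes, 9 were higher in all 3 sections and 7 at least 2-fold, with a median log2 difference of 1.35. Of 12 other collagens, 12 were higher and 2 at least 2-fold, with a median of 1.04, Col14a1 and Col16a1 having log2 differences of 1.58 ± 0.24 and 1.67 ± 0.36. The basement membrane chains Col4a1 and Col4a2 differed by 0.40 ± 0.14 and 0.43 ± 0.10. Of 20 genes of collagen processing, 5 passed 2-fold, and Loxl1, which crosslinks elastin and collagen, stood at 530, 293 and 562 CPM against 157, 105 and 152 CPM. Serpinh1, the collagen chaperone, differed by 0.66 ± 0.16.

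Counts in the other lists stand beside the 1.21% of all genes that were 2-fold higher in all 3 sections. At least 2-fold higher in all 3 sections were 7 of 8 fibroblast markers, 8 of 18 activated fibroblast genes, 4 of 5 measured late scar genes (of 10 listed), 9 of 16 resident fibroblast genes and 5 of 9 small leucine-rich proteoglycans. In the signalling lists these were 3 of 21 TGF-beta pathway genes, 2 of 7 PDGF ligands and receptors (Pdgfra and the receptor-like Pdgfrl), 5 of 7 Wnt modulators and 5 of 14 growth factors and cytokines. Among the TGF-beta ligands, Tgfb3 differed by 1.67 ± 0.55, Tgfb2 by 0.67 ± 0.57 and Tgfb1 by 0.55 ± 0.24. Of 13 metalloproteinases and inhibitors 3 passed, among them Mmp2 (519, 404 and 521 CPM against 211, 159 and 182 CPM), a gelatinase. The fibroblast-linked growth factors Ptn and Mdk differed by 1.49 ± 0.32 and 1.24 ± 0.22.

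Markers of other cell types were checked in the same spots. None of 5 cardiomyocyte, 7 macrophage and other immune, 5 endothelial, 5 mural and 5 blood markers was 2-fold higher in all 3 sections, but genes of other lists were. Of 10 immature muscle genes linked to CM4, Nppa (16306, 483 and 3527 CPM against 7660, 107 and 957 CPM) and Tagln were, and the 10 together summed to 23773, 4697 and 9795 CPM against 15241, 3382 and 5985 CPM. Of 3 measured valve and cartilage-like genes Sox9 was, at 57.0, 14.5 and 23.5 CPM against 13.0, 6.02 and 7.68 CPM. Cardiomyocyte transcripts were abundant in both kinds of spot. Tnnt2, cardiac troponin T, stood at 3949, 4276 and 4033 CPM in FB-dominant spots against 5272, 4836 and 5281 CPM in other spots, and the 5 cardiomyocyte markers together summed to 17162, 24228 and 22262 CPM against 23001, 26046 and 27352 CPM. No member was without it, the lowest standing at 1398, 1789 and 908 CPM. The 7 immune markers summed to 1747, 249 and 538 CPM against 912, 159 and 226 CPM. Their part in the differences between FB-dominant and other spots was not tested. The 14 cell cycle genes had a median log2 difference of 0.07, with 0 at 2-fold.

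The 8 genes with the most negative differences among abundant genes lower in each section included mitochondrial ones. The mitochondrially encoded complex I genes mt-Nd2 and mt-Nd4 differed by -0.83 ± 0.39 and -0.82 ± 0.36. Acss1, a mitochondrial acetyl-CoA synthetase, stood at 10.4, 71.7 and 48.7 CPM against 37.0, 88.1 and 81.1 CPM, and Slc25a13, a mitochondrial aspartate-glutamate carrier, at 25, 47.2 and 33.1 CPM against 67, 62.3 and 63.6 CPM. Fndc5 (-0.84 ± 0.65), Efnb3 (-0.90 ± 0.19), an ephrin ligand, Ddc (-0.90 ± 0.28), an aromatic amino acid decarboxylase, and Gm44386 (-0.87 ± 0.87) were also lower. Among these 8 genes the fold was widest in the day 3 section for all but Efnb3.

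The FB-dominant spots were gathered near CM4-dominant spots in the MI sections, of which there were 40, 76 and 86. The median distance from an FB-dominant spot to the nearest of them was 1.0, 1.4 and 1.7 spot spacings, against 3.5, 2.7 and 3.5 spacings for the other spots that were not CM4-dominant. In the sham sections it was 2.7 against 2.6 and 2.0 against 2.7 spacings. Other spots were thus farther than FB-dominant spots by 1.88 ± 0.580 spacings (SD, n = 3) in MI and by 0.3 ± 0.566 (SD, n = 2) in sham, with no overlap between the groups (exact permutation p = 0.2, adjusted 0.2).

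**Figure D2:**
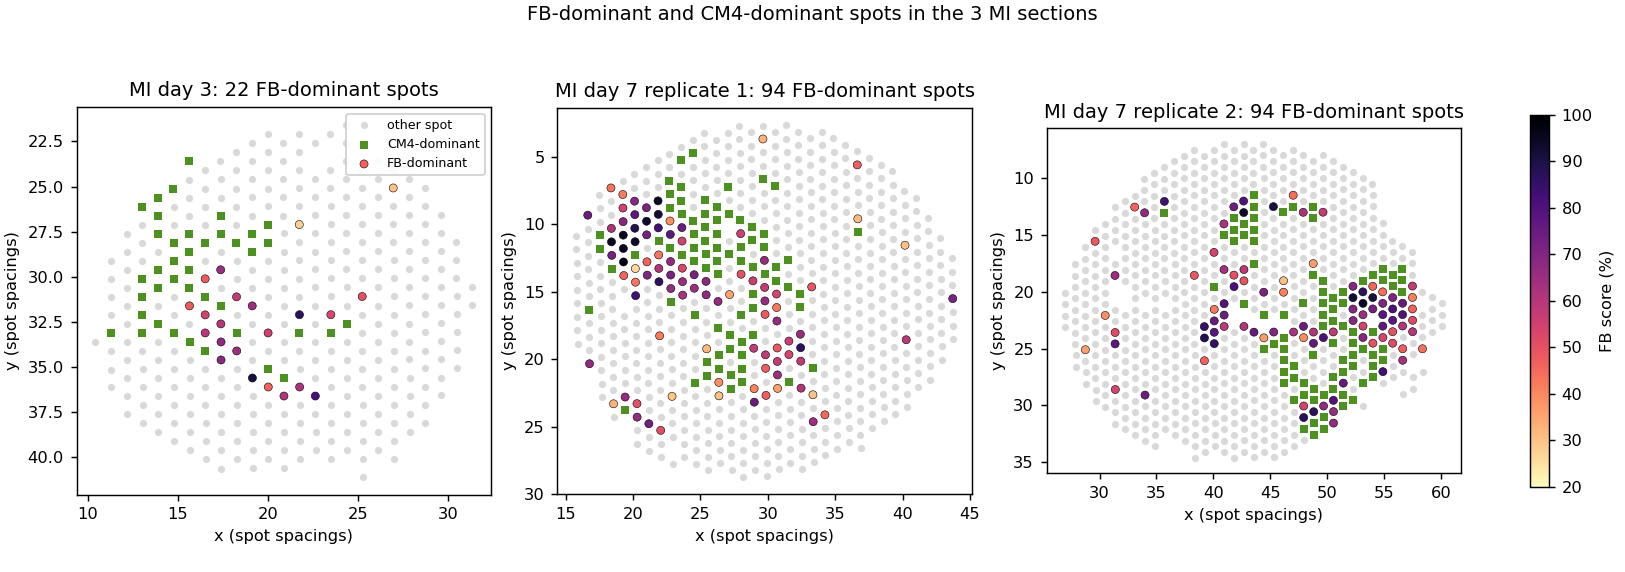
Spots of the 3 MI sections drawn in units of the spacing between neighbouring spots, with FB-dominant spots as circles coloured by FB score in percent, CM4-dominant spots as green squares and other spots in grey. FB-dominant spots touch at least 1 CM4-dominant spot in 15 of 22, 47 of 94 and 44 of 94 cases, and single members are scattered over the remaining tissue.

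Contact gave the same picture. In 15 of 22 (68.2%), 47 of 94 (50%) and 44 of 94 (46.8%) FB-dominant spots, at least 1 neighbour was CM4-dominant, against 19.8%, 20.7% and 17.8% of those other spots. In sham 28.7% and 28.6% of FB-dominant spots touched one, against 23.0% and 17.6%. In the first and second ring around a CM4-dominant spot, that is its neighbours and their neighbours, lay 21, 77 and 73 members, or 95.5%, 81.9% and 77.7%. Among all spots of a ring, the FB-dominant share was lower beyond the second ring than within it in every MI section. It was 20%, 30.5% and 28.9% in the first ring, 11.3%, 23.6% and 24.2% in the second, 0%, 8.42% and 7.53% in the third, and 0.645%, 3.81% and 4.18% farther out. The 0 of the third ring at MI day 3 allows a share of up to 7.14%, from a limit of 3 counts. In sham the rings held 29.4%, 18.6%, 25.8% and 25.4% at day 3, and 40.4%, 31.0%, 32.0% and 21.2% at day 7.

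**Figure D3:**
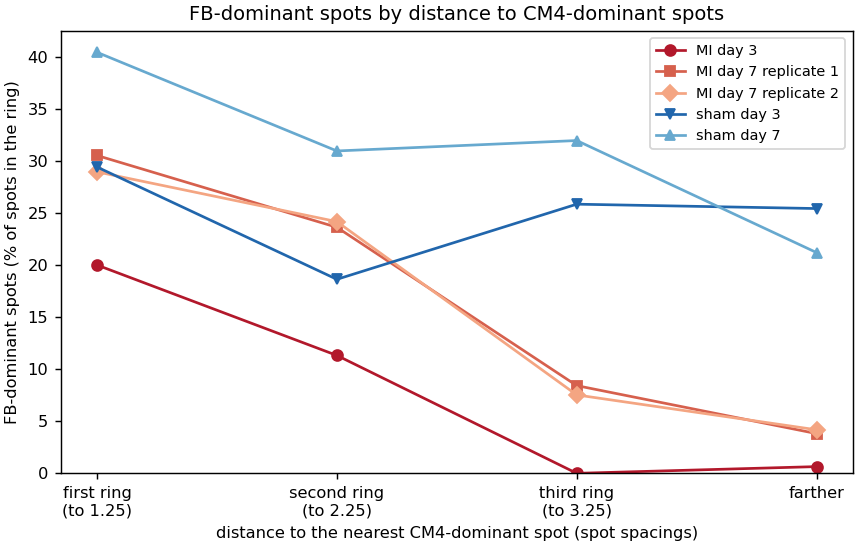
FB-dominant spots as a percentage of the spots in each ring around CM4-dominant spots, by distance in spot spacings, with 1 line per section. The 3 MI sections go from 20 to 30.5% in the first ring to 0.645 to 4.18% beyond the third, while the sham sections stay between 18.6 and 40.4% at every distance.

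The spots also clustered among themselves. They formed 10, 21 and 30 patches, the largest with 7, 45 and 33 spots, and 6, 14 and 20 stood alone. Of their neighbours 22.7%, 46.6% and 42.7% were FB-dominant too. Among the remaining neighbours CM4-dominant spots made up 23.5%, 28.5% and 30.1%, while they were 11.7%, 12.8% and 12.4% of all spots that were not FB-dominant. EndoEC-dominant spots made up 25.5%, 12.8% and 5.88% of these neighbours and 9.33%, 7.58% and 4.77% of such spots, and macrophage-dominant spots 7.84%, 3.82% and 8.50% against 5.83%, 3.54% and 1.88%. Relative to their share of spots, EndoEC at MI day 3 and macrophage-dominant spots in MI day 7 replicate 2 thus exceeded CM4. CM1-dominant spots made up 21.6%, 33.7% and 45.4% of these neighbours and 58.3%, 56.7% and 70.2% of such spots. Members at the tissue edge, with fewer than 6 neighbours, made up 0%, 6.38% and 23.4%, and the 0 of 22 at day 3 allows up to 13.6%. The matching shares of other spots were 21.9%, 15.7% and 19.8%.

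Near and far members were then compared within the MI day 7 sections, near being in the first or second ring around a CM4-dominant spot. MI day 3 had 21 near and 1 far spot and could not enter, so the fit rests on 77 near and 17 far spots in replicate 1 and 73 near and 21 far spots in replicate 2, with section as a block. Of 12978 genes, 12 (0.0925%) were higher near and 0 (0%) lower near at a limma adjusted p under 0.05, and at an unadjusted p under 0.05 the counts were 741 and 93. With 1 residual degree of freedom these p-values lean on a spread shared over all genes. Under median-of-ratios scaling 14 were higher and 7 lower. Only 4 genes were called with near as the first ring and 2 without the filter on low values, and 9 of 11 called genes examined lost their call under each, the exceptions being Nppa and Nppb under the former and Nppa and Eln under the latter. Nearness to CM4-dominant spots does not come from independent data, since the CM4 score was made from the same transcripts.

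The 12 genes higher near CM4-dominant spots included both natriuretic peptide genes. Nppa (chr4:148000722-148002079, plus strand), the atrial natriuretic peptide, stood at 560 near and 137 CPM far in replicate 1, and at 4199 and 1193 CPM in replicate 2 (log2 difference 1.92, SE 0.10, adjusted p = 4.12e-14). Nppb, the related B-type peptide of stressed cardiomyocytes, was also higher near (0.96, SE 0.17, adjusted p = 0.00744). Thbs4 (chr13:92751590-92794818, minus strand), a thrombospondin of the matrix, stood at 43.0 and 5.54 CPM and at 112 and 33.6 CPM (2.23, SE 0.32, adjusted p = 0.000391). Eln stood at 1830 and 891 CPM and at 3007 and 1676 CPM (0.94, SE 0.09, adjusted p = 3.65e-08). Each of these genes was higher near in both sections, as were 36.2% of all genes tested. The other 8 were Adamtsl2 (1.65), Ccn2 (1.36), a matricellular target of TGF-beta, Pi16 (1.24), Fxyd6 (1.21), Postn (0.55), Cthrc1 (1.02), Fmod (3.10), a collagen-binding proteoglycan, and Htra3 (0.75), a secreted serine protease. Fmod was sparse, at 13.6 and 1.12 CPM and at 35.9 and 2.46 CPM.

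**Figure D4:**
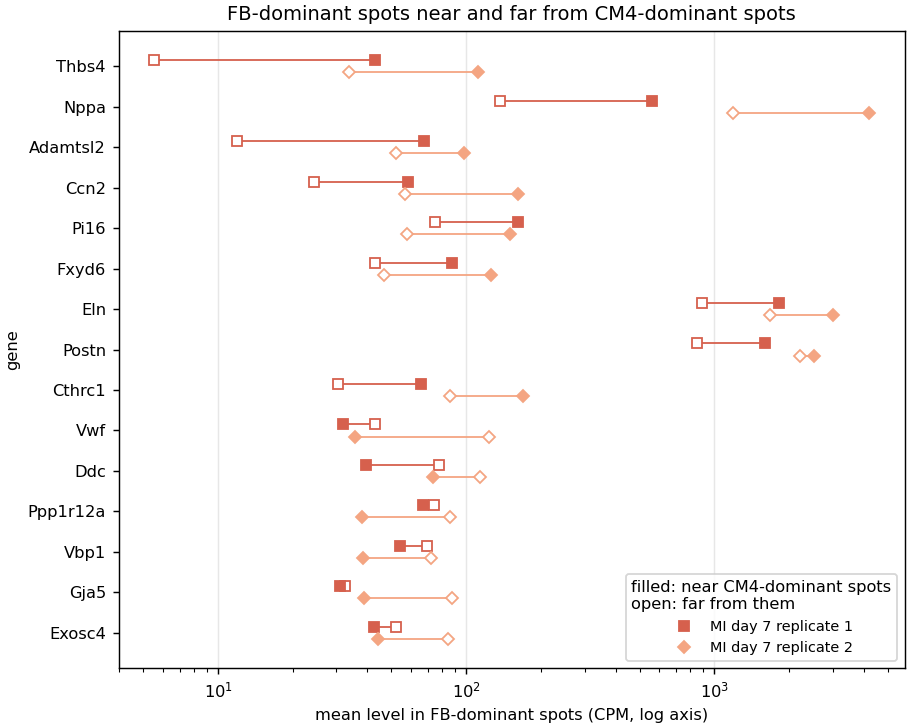
Mean level in CPM on a log axis of 15 genes in FB-dominant spots near (filled) and far from (open) CM4-dominant spots in the 2 MI day 7 sections. From Thbs4 to Cthrc1 both sections have the filled symbol to the right, as for Nppa at 560 against 137 CPM in replicate 1, and from Vwf to Exosc4, none of which passed the test, to the left.

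Of the class markers, Postn alone passed. With a macrophage score under 0.05, chosen after seeing the data, Col1a1 (log2 0.44, adjusted p = 0.00306 by limma) and Col1a2 (0.52, adjusted p = 0.000315) passed as well, from 0.21 and 0.27. Col1a1 stood at 1934 and 1442 CPM in replicate 1 and at 3550 and 3569 CPM in replicate 2 (adjusted p = 0.715 by limma), Col1a2 at 1751 and 1286 CPM and at 3259 and 3042 CPM, and Pdgfra at 82.4 and 70.0 CPM and at 94.7 and 113 CPM. The endothelial gene Vwf had the most negative value among abundant genes, 32.0 near and 43.0 CPM far and then 35.5 and 123 CPM (log2 -1.09, SE 0.28, adjusted p = 0.198), and Ddc, Ppp1r12a, Vbp1, Gja5 and Exosc4 lay between -0.79 and -0.61 without passing. Beside the 0.0925% of all genes called higher near, 4 of 18 activated fibroblast genes, 1 of 17 elastic fibre genes, 0 of 10 fibrillar collagens and 0 of 7 immune markers were. The activated genes Postn, Ccn2, Thbs4 and Cthrc1 and the elastic fibre gene Eln lost their call with near as the first ring. Near spots had a higher FB score than far spots (61.3% against 55.1%, and 65.9% against 59.8%), a CM4 score of 13.7% against 13.6% and of 11.7% against 5.46%, and median totals of 54108 against 52050 and 18872 against 14802 UMIs. The part of these in the gene differences was not tested.

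Day 7 was compared with day 3 in the FB-dominant spots of the MI hearts. Of 13264 genes, 248 (1.87%) were higher and 357 (2.69%) lower at day 7 at a limma adjusted p under 0.05. The single day 3 section was assumed to vary as the other groups do, and 1 residual degree of freedom was left. The median gene was lower by 0.17 on the log2 scale (-0.17), 41.0% of the calls were higher, and under median-of-ratios scaling 606 were higher and 418 lower (59.2% higher) with a median of 0.01. The called genes examined kept their direction under both this scaling and the one without mitochondrial and haemoglobin genes. Of the 51 called genes examined, 21 lost their call with an FB lead of at least 0.1 and 22 without the filter on low values. The 20 that lost it under both were Nppa, Tnc, Ccn2, Meox1, Clec3b, Ly6a, Clu, Igf1, Cxcl12, Pdgfd, Adamts4, Col5a3, Top2a, Ccna2, Ccnb1, C1qa, Ptprc, Adgre1, Msln and Sox9. Birc5 lost it under the former alone, and Tgif1 and Csf1r under the latter alone.

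Several genes of immune cells were among those that fell. Lgals3 (chr14:47367751-47386160, plus strand), galectin 3 of macrophages, went from 227 CPM at day 3 to 4.79 and 19.0 CPM at day 7 (log2 -4.40, SE 0.52, adjusted p = 0.000134), and Ctss, a lysosomal protease of phagocytes, from 286 to 19.6 and 39.7 CPM (-3.31, SE 0.35, adjusted p = 5.07e-05). Spp1 (chr5:104435118-104441050, plus strand), osteopontin, went from 217 to 3.87 and 32.2 CPM (-4.10, SE 0.70, adjusted p = 0.00231). Both day 7 sections stood well below day 3, and replicate 2 was the higher of the pair for all 3 genes. Other spots of these sections stood at 104, 4.30 and 10.1 CPM for Lgals3 and at 148, 11.2 and 14.9 CPM for Ctss. The neutrophil genes S100a8 (-3.98) and S100a9 (-4.65), Cstdc5 (-4.30), the interferon-responsive Ifi27l2a (-3.70) and the leukocyte antigen Cd52 (-3.56) fell too. At day 3 the S100a9 level came from few spots, since 14 of 22 were at 0 and the 3 highest carried 95.8% of the sum.

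All 7 macrophage and other immune markers fell, with a median log2 difference of -1.84, among them Lyz2 (1132 to 116 and 289 CPM), Cd68 (59.3 to 12.9 and 11.8 CPM) and C1qa (190 to 44.0 and 90.4 CPM). Of these markers C1qa, Ptprc and Adgre1 lost their call with the FB lead and without the filter, and Csf1r without the filter. Their sum went from 1747 to 249 and 538 CPM in FB-dominant spots, and from 912 to 159 and 226 CPM in the other spots of the same sections, with sham FB-dominant spots at 127 and 137 CPM. When only FB-dominant spots with a macrophage score under 0.05 were kept, a choice made after seeing the data, the sums were 842, 238 and 333 CPM, and of the 51 genes called and examined under alternatives 8 no longer passed, Meox1, Adamts4, Tgif1, Igf1, Csf1r, Adgre1, Sox9 and Ly6a. Ly6a, called lower at -1.11, changed sign to 0.35 in those spots.

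**Figure D5:**
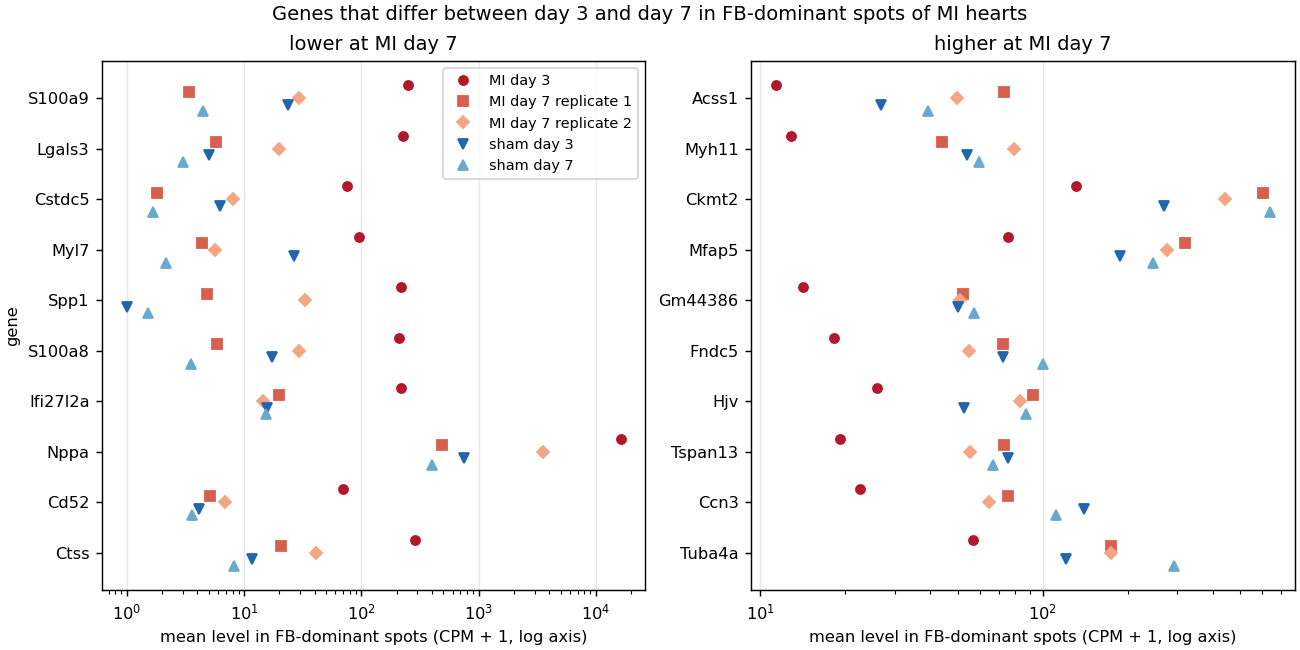
Mean level in FB-dominant spots, as CPM + 1 on a log axis, with sham sections for reference. The left panel holds the 10 genes with the most negative log2 difference between MI day 7 and MI day 3. The right panel holds the 10 with the most positive. Only genes above a mean level of 50 CPM, the limit for naming genes, were ranked. The MI day 3 symbol stands apart on the right for the genes on the left panel, as for Nppa at 16306 CPM against 483 and 3527 CPM, and on the left for those on the right panel, as for Mfap5 at 74.5 CPM against 317 and 275 CPM.

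Muscle genes moved both ways. Nppa went from 16306 CPM to 483 and 3527 CPM (-3.64, SE 0.67, adjusted p = 0.00395), and Myl7, the atrial myosin light chain, from 94.7 to 3.35 and 4.62 CPM (-4.28, SE 0.41, adjusted p = 2.35e-05). In the other spots of the same sections Nppa stood at 7660, 107 and 957 CPM and Myl7 at 38.6, 1.12 and 2.78 CPM. Ckmt2, the sarcomeric mitochondrial creatine kinase, rose from 130 to 605 and 442 CPM (1.98, SE 0.27, adjusted p = 0.000463), beside 169, 740 and 730 CPM in other spots. The smooth muscle myosin Myh11 rose from 11.9 to 43.0 and 78.0 CPM (2.20, adjusted p = 0.000642), although 16 of 22, 49 of 94 and 65 of 94 members were at 0. Acss1 (2.40), Gm44386 (1.87), Fndc5 (1.79), Hjv (1.75), the co-receptor hemojuvelin, Tspan13 (1.72) and Tuba4a (1.62), an alpha tubulin, rose as well. Acss1, Gm44386 and Fndc5 are also genes lower in FB-dominant than in other spots.

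Among fibroblast genes the calls between days were on members of other lists than the fibroblast markers. With 1 section against 2, an uncalled gene is not shown to be unchanged. Dcn (768 to 1233 and 1439 CPM), Lum (529 to 662 and 746 CPM) and Col3a1 (3771 to 4988 and 7577 CPM) were higher in both day 7 sections. Tcf21 (195 to 81.1 and 130 CPM) and Pdgfra were lower in both. None of the 8 fibroblast markers was called, and Col1a1, Postn, Col1a2 and Pdgfra had log2 differences of 0.08, -0.21, 0.07 and -0.56, the sign of the first 3 turning when 1 day 7 section was left out (Col1a1 -0.39 and Col1a2 -0.40 without replicate 2, Postn 0.16 without replicate 1). Of 18 activated fibroblast genes 4 fell, Tnc (296 to 39.7 and 143 CPM, -1.96, adjusted p = 0.0159), Ccn2 (257 to 52.0 and 138 CPM), Thbs1 (89.0 to 13.6 and 30.4 CPM) and Meox1 (132 to 42.3 and 75.9 CPM), a transcription factor of activated fibroblasts, and 0 rose. Of 16 resident fibroblast genes 5 rose and 1, Ly6a, fell. Mfap5 (chr6:122505845-122529290, plus strand), a microfibril protein of adventitial fibroblasts, rose from 74.5 to 317 and 275 CPM (1.97, SE 0.25, adjusted p = 0.000214), beside 32, 141 and 120 CPM in other spots, and Pi16 from 51.9 to 146 and 130 CPM (1.39, adjusted p = 0.00355). The others were Ccn3 (21.5 to 74.3 and 63.4 CPM), Clec3b (20.2 to 63.6 and 37.6 CPM) and Scara5 (1.35 to 24.1 and 11.4 CPM). Other spots moved the same way for Tnc (61.3 to 11.3 and 25.3 CPM), Ccn2 (146 to 32.6 and 57.3 CPM) and Pi16 (12.8 to 35.4 and 22.7 CPM). Thbs1, Scara5 and Ly6a were called in the comparison of the FB-dominant minus other difference given below. Tnc, Ccn2, Meox1, Mfap5, Pi16, Ccn3 and Clec3b were not.

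Calls in the matrix and signalling lists stand beside the 1.87% of all genes called higher and 2.69% called lower. Col5a3 (1.45) and Col6a3 (114 to 253 and 392 CPM, 1.45, adjusted p = 0.00469) rose among 10 fibrillar and 12 other collagens. Loxl2, a collagen crosslinking enzyme, fell from 230 to 50.02 and 76.9 CPM (-1.88, adjusted p = 0.000642), as 1 of 20 processing genes. Of 21 TGF-beta pathway genes 2 fell, Ccn2 and Tgif1, a corepressor. Igf1, a growth factor, fell (76.7 to 34.5 and 39.2 CPM) and the chemokine Cxcl12 rose (44.6 to 79.1 and 102 CPM), while Adamts4 fell as 1 of 13 metalloproteinases and inhibitors. Of 14 cell cycle genes 4 fell, Birc5, Ccna2, Ccnb1 and Top2a, and 0 rose, with Top2a going from 81.5 to 31.4 and 47.1 CPM. Mki67, the proliferation marker, stood at 81.3, 32.8 and 59.8 CPM and was not called (adjusted p = 0.113 by limma).

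In the sham hearts the single FB-dominant profiles of day 3 and day 7 gave no test of their own. The difference between the MI and the sham change over days passed for 1 gene in each direction (0.00754% each), with 517 and 490 genes at an unadjusted p under 0.05, and it was 130 genes with median-of-ratios scaling. Both genes, Cyp4b1 and Ifi27l2a, were also called between days in MI. No other gene called in MI is shown to differ from its change in sham by this test. Top2a, for one, stood at 74.5 and 43.0 CPM in sham.

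The FB-dominant minus other difference was also compared between days, and it was larger at day 7 for 540 genes (4.06%) and smaller for 93 (0.7%) of 13287 by limma. Of the genes above, Lgals3, Ctss, Myl7, Ckmt2 and Mfap5 were not called (adjusted p = 0.224, 0.866, 0.639, 0.752 and 0.977), while Nppa was (0.93, adjusted p = 0.00216). Cnn1 was called larger at day 7 (1.45), a call lost with a pseudocount of 5 CPM, at 103, 11.3 and 37.9 CPM in FB-dominant and 52.0, 1.75 and 5.08 CPM in other spots. The mean of Spp1 was lower in FB-dominant spots than in other spots at day 3 (217 against 577 CPM) and higher at day 7 (3.87 against 1.16 and 32.2 against 21.1 CPM). Its median at day 3 ran the other way, 143 CPM in FB-dominant against 59.5 CPM in other spots, with 17 of 22 members above the latter, and at day 7 the medians were 0. Myh11 stood at 11.9 against 14.5 CPM at day 3, and at 43.0 against 10.4 and 78.0 against 11.3 CPM at day 7.

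FB-dominant spots of MI hearts were last compared with those of sham hearts, across days. Of 13264 genes, 78 (0.588%) were higher in MI and 1 (0.00754%), Tuba4a, lower at a limma adjusted p under 0.05. The count rests on single sections, being 0 without MI day 7 replicate 2, 16 without MI day 3, 635 without MI day 7 replicate 1, 14 without sham day 3 and 698 without sham day 7. The sham day 3 table alone held raw counts, the others corrected counts, and the part of this in the differences was not tested.

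Sfrp2 stood at 121, 54.3 and 174 CPM in MI and at 10.8 and 20.6 CPM in sham (log2 2.70, SE 0.40, adjusted p = 0.0173). Adamtsl2 stood at 200, 57.7 and 88.0 CPM against 17.3 and 16.6 CPM (2.65, SE 0.29, adjusted p = 0.00593), and Eln at 1356, 1660 and 2710 CPM against 416 and 704 CPM (1.64, SE 0.24, adjusted p = 0.0169). Clu, a secreted chaperone, stood at 1849, 166 and 737 CPM against 98.4 and 96.4 CPM (2.87, adjusted p = 0.0454). For all 4 genes every MI section stood above both sham sections, as it did for 13.1% of all genes tested. Counts in the lists stand beside the 0.588% of all genes called higher in MI. Of the late scar list 4 of 5 measured genes were higher, Cilp, Clu, Fmod and Sfrp2, of the elastic fibre list 5 of 17 and of the Wnt modulators 4 of 7. Among other matrix genes, 0 of 10 fibrillar collagens, 2 of 12 other collagens and 3 of 9 proteoglycans were higher. Col1a1 itself, at 2422, 1845 and 3554 CPM against 1060 and 1079 CPM, did not pass (1.22, SE 0.28, adjusted p = 0.0927).

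Of the 7 immune markers 5 were higher in MI, Lyz2, Cd68, C1qa, C1qb and Csf1r, and so were Ctss (3.02) and Apoe (2.50), an apolipoprotein that macrophages also make. Spp1 was listed at 0 and 0.512 CPM in sham, so its fitted log2 difference of 5.09 (adjusted p = 0.0376) depends on the added 1 CPM. Tpm3-rs7 (3.54) is a near copy of the tropomyosin gene Tpm3, and reads may have been split between them. The genes with the most negative values other than Tuba4a did not pass, with Ccn3 at 21.5, 74.3 and 63.4 CPM against 139 and 111 CPM (-1.52, adjusted p = 0.0743 by limma), and Casq1, Fndc5, Cdc37l1, Mrpl42, Hmgcs1, Fam126a and Fam174b between -1.32 and -0.86.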

How the data were processed

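Visium libraries from 5 heart sections were analysed, each taken as 1 replicate. According to the methods and the labels, the authors aligned reads to mm10/GRCm38 with Space Ranger, normalized spots with sctransform in Seurat and transferred cell type labels from single nuclei. In the deposited tables the sham day 3 values were raw UMI counts, and the other 4 tables held depth-corrected counts, treated here as a score because sctransform adjusts them. The deposited label transfer values were a fraction per cell type, summing to 1 in each spot, and the deposited coordinates were pixels.

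Each spot was scaled to CPM over the 13708 genes shared by the 5 tables (99.8% to 99.9% of values), and spots were averaged per section and class. Genes with at least 1 CPM in at least 2 profiles were fitted as log2(CPM + 1) with limma 3.58.1 (R 4.3.3), trended empirical Bayes, and Benjamini-Hochberg adjustment at 0.05. Fold changes on this scale understate the change of low genes. A count model could not be used on corrected values. Residual degrees of freedom were 1 (2 for MI against sham), so the p-values rest mostly on a spread pooled over genes. The weight of that pooled spread, its prior degrees of freedom, was 17.4 between days, 28.6 for near against far and 9.68 for MI against sham. It was infinite for the FB-dominant minus other difference, where a gene's own spread between sections had no weight. The labels do not say how the hearts were bred or grouped. Spots were not used as replicates in the gene fits or the section comparisons. The binomial intervals of the shares and the limits from 3 counts treat spots as independent, although they clustered. CM4 distances were in units of the spot spacing, with the first ring holding the 6 neighbours and the second their neighbours, and a class needed 8 spots in a section. Section measures were compared by exact permutation (scipy 1.17.1). Gene positions are from GENCODE on GRCm38.

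The members and gene lists were chosen with earlier results of these data known. Genes were named by rank of log2 difference among genes above a mean level of 50 CPM, with the class markers, the most abundant members of each list and the members that passed; further list members were chosen after their values were seen. Some genes that the rule named are not reported here. Scripts were tested on simulated data. Alternatives were other scaling, filter, pseudocount (5 CPM), summed values, score thresholds, near distances and left-out sections.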

Additional observations from a re-analysis of the deposited data

Results flagged for a closer look

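The change from day 3 to day 7 in FB-dominant spots differed between MI and sham hearts for 2 genes by the interaction term of limma. Cyp4b1, a cytochrome P450, stood at 0, 12.7 and 14.0 CPM in the MI sections and at 14.6 and 8.86 CPM in sham. Its fitted log2 difference of the changes, 4.504, depends on the added 1 CPM because MI day 3 is listed at 0. Ifi27l2a, an interferon-responsive gene, stood at 218, 18.8 and 13.4 CPM in MI and at 14.7 and 14.4 CPM in sham, a log2 difference of -3.67. Neither gene passed without the filter on low values or with an FB lead of at least 0.1.

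The FB-dominant minus other difference changed between MI day 3 and MI day 7 for 633 genes by limma. The largest increases among abundant genes were in Myh11 (2.59 on the log2 scale), Spp1 (2.28), Gm44386 (1.49), Cnn1 (1.45) and Acta1 (1.44), skeletal alpha actin. For Spp1 the means and medians of MI day 3 ran opposite ways, with means of 217 CPM in FB-dominant and 577 CPM in other spots and medians of 143 and 59.5 CPM. The largest decreases were in S100a9 (-3.06), Cstdc5 (-2.85), S100a8 (-2.32), Thbs1 (-1.08) and Prelp (-1.08), a leucine-rich matrix protein. Of these 10 genes, Cnn1 lost its call with a pseudocount of 5 CPM, Thbs1 with an FB score of at least 0.5 and with a macrophage score under 0.05, and Prelp with the latter. Prelp was not called between days in FB-dominant spots (adjusted p = 0.997 by limma), at 52.0, 58.9 and 46.1 CPM, and stood at 14.8, 32.9 and 31.9 CPM in other spots. The S100a9 and S100a8 values rest on few spots of MI day 3, where the 3 highest members carried 95.8% of the S100a9 sum and 93.6% of the S100a8 sum, and 14 and 11 of 22 members were at 0.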

How the results depend on the processing

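The lower share of FB-dominant spots in MI (-17.2 to -11.9 percentage points when 1 section was left out) and their shorter distance to CM4-dominant spots (1.58 to 2.15 spacings) kept their direction under the alternatives run. Counts moved more. Genes at least 2-fold higher than in other spots numbered 161, then 76 with median-of-ratios scaling, 83 with a pseudocount of 5 CPM and 192 to 302 with 1 section left out, with 0 to 55 at least 2-fold lower. Calls between days numbered 605, then 1024 with median-of-ratios scaling, 1052 without mitochondrial and haemoglobin genes, 222 without the filter, 1049 on summed values, 272 with an FB lead of at least 0.1 and, chosen after seeing the data, 1604 with a macrophage score under 0.05. Leaving out a sham section gave 558 to 636. Calls between MI and sham numbered 79, then 119 without mitochondrial and haemoglobin genes, 30 with the pseudocount of 5 CPM, 170 with an FB score of at least 0.5, 130 with the macrophage limit, and 0 to 698 with 1 section left out (at 0, limma had 737 and 395 genes, higher and lower, with an unadjusted p under 0.05). The 2 calls for a day change that differed between MI and sham became 130 with median-of-ratios scaling, 141 without mitochondrial and haemoglobin genes, 0 without the filter (498 and 475 at an unadjusted p under 0.05), 18 with the pseudocount of 5 CPM, 97 on summed values, 25 with an FB score of at least 0.5, 0 with the FB lead (628 and 569), 152 with the macrophage limit and 57 with near spots only, the last also chosen after seeing the data. The 633 calls on the FB-dominant minus other difference became 1445 with the macrophage limit. The 12 calls near CM4-dominant spots became 21 with median-of-ratios scaling, 34 without mitochondrial and haemoglobin genes, 2 without the filter, 35 with the pseudocount of 5 CPM, 31 with the FB lead, 41 with the macrophage limit and 4 with near limited to the first ring. The causes were not tested.

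Single genes that changed sign between days were Col1a1 (-0.016 with the FB lead, and -0.39 to 0.55 with 1 day 7 section left out), Col1a2 (-0.40 to 0.55), Postn (-0.58 to 0.16) and Ly6a (0.35 with the macrophage limit). Between near and far they were Col1a1 (-0.019 with near as the first ring, and -0.0075 to 0.42 with 1 section left out), Col1a2 (-0.0077 with near as the first ring) and Pdgfra (0.10 with the macrophage limit, 0.11 with near as the first ring, and -0.26 to 0.23 with 1 section left out). No other gene examined under these alternatives changed sign. Between near and far, Col1a1 and Col1a2 gained a call with the macrophage limit (0.44 and 0.52). Of the 51 called day genes examined, 21 lost their call with the FB lead, 22 without the filter, 5 with an FB score of at least 0.5, and 8 with the macrophage limit. Of the 11 called near and far genes examined, 9 lost theirs with near as the first ring, 9 without the filter, and 6 with near set at the median distance. Of the 32 called MI and sham genes examined, 15 lost theirs with the pseudocount of 5 CPM, 8 without the filter, 24 without MI day 3, 32 without MI day 7 replicate 2 and 25 without sham day 3.

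Leaving out an MI day 7 section left no residual degrees of freedom between days or between near and far, and leaving out MI day 3 left no comparison of days, so these gave values or none and no calls. Sections of different groups could not be paired, since the labels gave no pairing. Near against far and FB-dominant against other spots were compared within each section. The single day 3 sections, the 22 members at MI day 3 and the 17 and 21 far spots limit the precision.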

Other observations

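Some lists held cell types that the report described only in part. Endocardial genes were higher in FB-dominant than in other spots of each MI section, Npr3 by 1.11 ± 0.41 and Plvap by 1.35 ± 0.72 (log2, SD over 3 sections), with summed levels of 61.3, 37.9 and 63.1 CPM against 40.7, 11.7 and 18.9 CPM. Among valve and cartilage-like genes, Sox9, a transcription factor, stood at 57.0, 14.5 and 23.5 CPM against 13.0, 6.02 and 7.68 CPM in other spots, and it fell between days (limma log2 -1.58, adjusted p = 0.0128), a call lost with an FB lead of at least 0.1, without the filter on low values and with a macrophage score under 0.05. Acan, which encodes aggrecan, was listed at 0 in all 22 members of MI day 3, and stood at 7.72 and 22.7 CPM at MI day 7 and at 12.8 and 14.8 CPM in sham. It was at 0 in 81 and 77 of the 94 members of the day 7 sections. Of the epicardial genes, Wt1 stood at 9.10, 11 and 20.1 CPM against 13.4, 10.4 and 13.0 CPM, and Msln, the mesothelial marker, at 14.0, 1.38 and 3.57 CPM against 15.4, 2.51 and 6.47 CPM, lower than in other spots of each section. None of the adipocyte markers was among the shared genes.

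Distances to macrophage-dominant spots differed between sections. FB-dominant spots lay a median of 2.8, 6.3 and 3.6 spacings from the nearest macrophage-dominant spot, against 6.3, 4.0 and 5.3 spacings for other spots, so they were nearer in MI day 3 and MI day 7 replicate 2 and farther in MI day 7 replicate 1.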
